A study of Mus musculus with 6 samples.

Results

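Ubiquitin-specific proteases were followed in mouse embryonic stem (ES) cells that carried 1 of 2 lentiviruses. The family was taken by name: every gene of the deposited count table written as Usp and a number, without the imprinted gene Usp29. This gave 46 of 23420 gene symbols, on 16 chromosomes, and 45 of them had enough counts to be tested. RNA was read in 6 libraries. In 3 of them (replicates 1, 2 and 3) the cells were stably transduced with wild-type KBP, and in the other 3 (replicates 4, 5 and 6) with KBP(KK/RR), a mutant that the labels describe as stable. All cells were kept self-renewing and all had received a KBP virus, so no group without added KBP was compared. The labels give no strain, clone or culture for the libraries, so p-values measure the spread between these samples, which may be technical.

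Ubiquitin is a small protein that ligases attach to other proteins, often to send them to the proteasome. Ubiquitin-specific proteases are cysteine peptidases that take it off again, and they form the largest family of deubiquitinating enzymes. Single members recycle ubiquitin at the proteasome, edit ubiquitin on histones, receptors and DNA repair proteins, or act at mitochondria and endosomes. KBP, the Kif1-binding protein, is itself a target of ubiquitin ligation, and the comparison shows how transcripts of the opposing enzymes stood under the mutant and under wild-type KBP.

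The 6 libraries held 24131743 to 32160411 counts in total, and the 46 genes took 0.441% to 0.466% of each. Values below are CPM, the counts of a gene scaled to a common library size that allows for differences in composition. Counts of the KBP gene (2510003E04Rik in the table) stood at 48.3, 47.0 and 49.6 CPM with wild-type KBP and at 56.3, 59.6 and 53.9 CPM with KBP(KK/RR), a log2 fold change of 0.23 (SE 0.05, edgeR adjusted p = 0.0133). The edgeR adjusted p was not under 0.05 without wild-type KBP replicate 2 (0.0908) or without KBP(KK/RR) replicate 5 (0.0735). Counts of this gene do not separate the native gene from the virus. ES cell identity was checked on 8 markers, among them Pou5f1, Nanog and Sox2, whose summed level was 6225 to 6284 CPM with wild-type KBP and 6152 to 6364 CPM with KBP(KK/RR). Of the 8, 0 were called by edgeR or by DESeq2, and 3 had an unadjusted p under 0.05, against 18.6% of all tested genes. Nanog was higher (log2 fold change 0.096), and Esrrb (-0.093) and Klf4 (-0.089) were lower. The groups did not overlap for 4 of the 8 markers, against 22.4% of all tested genes. The lists of other cell types had no gene at 0 in all libraries. Of 9 primitive endoderm markers 3 fell (Pdgfra by 0.68, Col4a1 by 0.25 and Col4a2 by 0.21 on the log2 scale) and 0 rose. Pdgfra was counted at a low level (mean 2.32 against 1.46 CPM). Over all tested genes 2.07% were called lower. DESeq2 gave an adjusted p to 3 of the 9 markers and called 2. An unadjusted p under 0.05 was reached by 5 of the 9, against 18.6% of all tested genes. The summed level of the 9 was 362.5 to 441 CPM with wild-type KBP and 287 to 339 CPM with KBP(KK/RR), without overlap. The largest parts of this sum were Lama1 (227 against 161 CPM, not called, edgeR adjusted p = 0.169) and Col4a1 (111 against 92.9 CPM). Within its groups Lama1 (longest transcript 9526 bases) was lowest in wild-type replicate 1 (197 CPM) and highest in KBP(KK/RR) replicate 4 (182 CPM). Gata6, Gata4 and Sox17 gave no call by edgeR. Sox7 was not called either (edgeR adjusted p = 0.0949), but it was lower without overlap (log2 fold change -0.46, unadjusted p = 0.0053). Of the 9 fold changes 8 were negative, and the groups did not overlap for 5 of the 9. Of 6 tested neural markers 1 was called lower (Ncam1, log2 fold change -0.22) and 0 higher (211 to 216.5 against 207 to 215 CPM). An unadjusted p under 0.05 was reached by 3 of the 6: Ncam1 and Sox1 were lower, and Map2 was higher without overlap (log2 fold change 0.24). Of the 6 fold changes 4 were positive, and DESeq2 called 1 of the 4 markers it adjusted. Of 6 tested fibroblast or feeder markers and 7 tested trophectoderm markers 0 were called by edgeR and 0 had an unadjusted p under 0.05, while DESeq2 gave an adjusted p to 1 and 2 of them and called 0. Their sums were 724 to 944 against 572.5 to 772 CPM and 56.1 to 64.7 against 54.1 to 62.5 CPM. The largest part of the first sum was Fn1 (mean 837 against 655 CPM, edgeR adjusted p = 0.379).

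The start regions of 4 genes described below are shown. Usp26 and Usp11 passed the test in opposite directions, and the sister genes Usp12 and Usp46 lay lower together without passing it. This pair was picked for its kinship and not as the next strongest difference. Usp45 and Usp48, lower at smaller edgeR unadjusted p (0.00466 and 0.0131, against 0.0223 and 0.0340), are not shown. Each run is the 250 bases before the RefSeq transcript start on GRCm38.p6, 5′ to 3′ on the gene's own strand, with every CG dinucleotide in capitals. Usp26 lies at chrX:51801234-51801483 (minus strand), Usp11 at chrX:20703659-20703908 (plus strand), Usp12 at chr5:146794957-146795206 and Usp46 at chr5:74068412-74068661 (both minus strand).
Usp26: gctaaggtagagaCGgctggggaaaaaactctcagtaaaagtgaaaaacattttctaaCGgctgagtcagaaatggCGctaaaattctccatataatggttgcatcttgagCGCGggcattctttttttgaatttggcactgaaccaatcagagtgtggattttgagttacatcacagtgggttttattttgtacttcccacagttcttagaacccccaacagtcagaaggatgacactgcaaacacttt
Usp11: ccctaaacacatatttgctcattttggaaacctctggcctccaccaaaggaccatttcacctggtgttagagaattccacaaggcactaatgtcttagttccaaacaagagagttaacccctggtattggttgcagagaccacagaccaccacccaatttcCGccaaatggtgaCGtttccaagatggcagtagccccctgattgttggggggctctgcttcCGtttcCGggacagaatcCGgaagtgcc
Usp12: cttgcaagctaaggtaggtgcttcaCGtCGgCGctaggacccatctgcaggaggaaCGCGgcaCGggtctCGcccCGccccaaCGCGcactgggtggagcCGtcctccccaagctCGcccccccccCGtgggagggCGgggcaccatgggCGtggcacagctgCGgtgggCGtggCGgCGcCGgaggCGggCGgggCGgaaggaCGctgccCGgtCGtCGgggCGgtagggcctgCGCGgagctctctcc
Usp46: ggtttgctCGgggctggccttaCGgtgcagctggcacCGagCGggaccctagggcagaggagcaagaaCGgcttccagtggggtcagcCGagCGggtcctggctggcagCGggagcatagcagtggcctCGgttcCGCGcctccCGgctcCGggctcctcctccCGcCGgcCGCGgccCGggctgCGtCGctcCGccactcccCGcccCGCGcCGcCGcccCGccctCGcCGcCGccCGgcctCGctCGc

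The X-linked pair were poor in CG, with 5 each, whereas Usp12 held 30 and Usp46 held 33. CG reads the same on both strands. Of 32851 RefSeq start regions of this length, 92.1% held at least 1 CG, and 49.6% held no more than the 5 of Usp26 and Usp11. A start region was at hand for 35 of the 46 genes. Their median was 24 CG against 6 over all start regions, and 77.1% of them held at least 10, against 37.8% of all. The third X-linked gene of the family, Usp51, also held 5, Usp50 held the fewest (2), and Usp7 the most (55). The RefSeq start used for Usp7 lies inside the gene's span, at an inner transcript start, as do those of Usp2, Usp37, Usp45 and Usp54 among others. Over the 35 genes the CG number had a Spearman rho of 0.242 with the level per length and of -0.072 with the log2 fold change, given as a description of genes that share the same libraries.

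Levels between genes were compared per length, as CPM divided by the kilobases of the longest GENCODE transcript. The median of the 45 tested genes was 12.2 CPM per kb. Usp7, which stabilises MDM2 and p53 among many nuclear proteins, had the highest level (114 CPM per kb with wild-type KBP, 112 with KBP(KK/RR)). It was followed by Usp5, which disassembles free ubiquitin chains (96.4 and 97.7), Usp10, a partner of the stress granule protein G3BP1 (69.3 and 67.7), the splicing factor Usp39 (63.5 and 66.0) and Usp48 (60.7 and 56.2). The lowest tested genes were Usp50 (0.474 and 0.499 CPM per kb), Usp26 (0.468 and 0.786) and Usp43 (0.600 and 0.671). Usp10 and Usp39 lay close enough in level that the order of their group means is not a finding. Usp18, which removes the ubiquitin-like protein ISG15, was not tested: it had 1, 2 and 1 counts with wild-type KBP and 0, 1 and 1 with KBP(KK/RR).

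**Figure D1:**
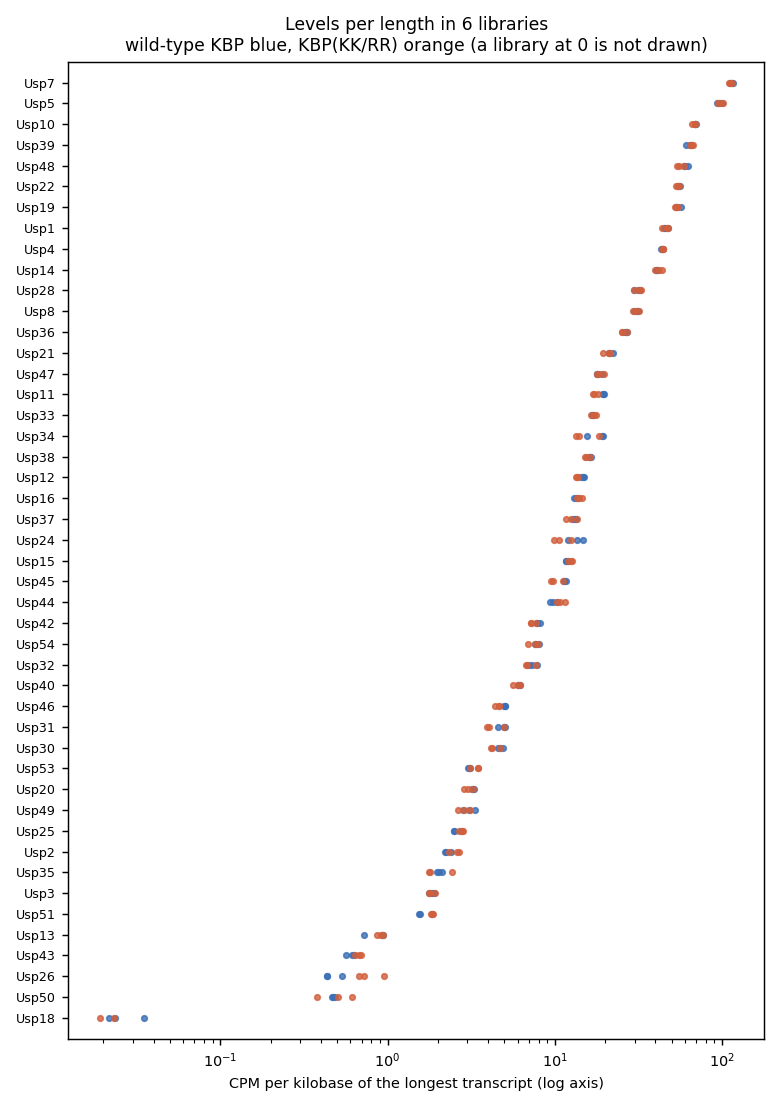
Level of each of the 46 genes per kilobase of its longest transcript, on a log axis, with 1 point for each of 6 libraries (wild-type KBP blue, KBP(KK/RR) orange). The levels spread from Usp18 near the floor to Usp7 above 100 CPM per kb, while the 6 points of most genes lie on top of each other.

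Differences between the groups were small. Of the 45 tested genes 1 rose (Usp26) and 1 fell (Usp11) in KBP(KK/RR) cells at an edgeR adjusted p under 0.05. That is 4.44% of the family, against 3.12% of all 14340 tested genes (1.05% higher and 2.07% lower). In bulk RNA a change in the number of cells with a transcript and a change in transcript per cell cannot be told apart. An unadjusted p under 0.05 was reached by 8 of the 45 (17.8%, against 18.6% of all), 2 of them higher and 6 lower, where 8.32% of all genes were higher and 10.3% lower. The groups did not overlap for 10 of the 45 (22.2%, against 22.4%). By each of these counts the family stood close to all tested genes. Its median log2 fold change was -0.018, beside -0.0022 over all tested genes, and 57.8% of its fold changes were negative, beside 50.8%.

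The replicates bounded the differences closely. The coefficient of variation within a group had a median of 3.83%, and for 33 of the 45 genes the 95% interval of the difference lay within 1.2-fold in either direction (for 42 within 1.5-fold). The summed level of the 46 genes was 4541, 4664 and 4627 CPM with wild-type KBP and 4608, 4435 and 4415 CPM with KBP(KK/RR), and these ranges overlapped. In the whole data set 151 genes were called higher and 297 lower, a split that became 235 and 205 with upper-quartile scaling, and DESeq2 called 0 of the 37 Usp genes to which it gave an adjusted p, with 7 of the family at an unadjusted p under 0.05.

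**Figure D2:**
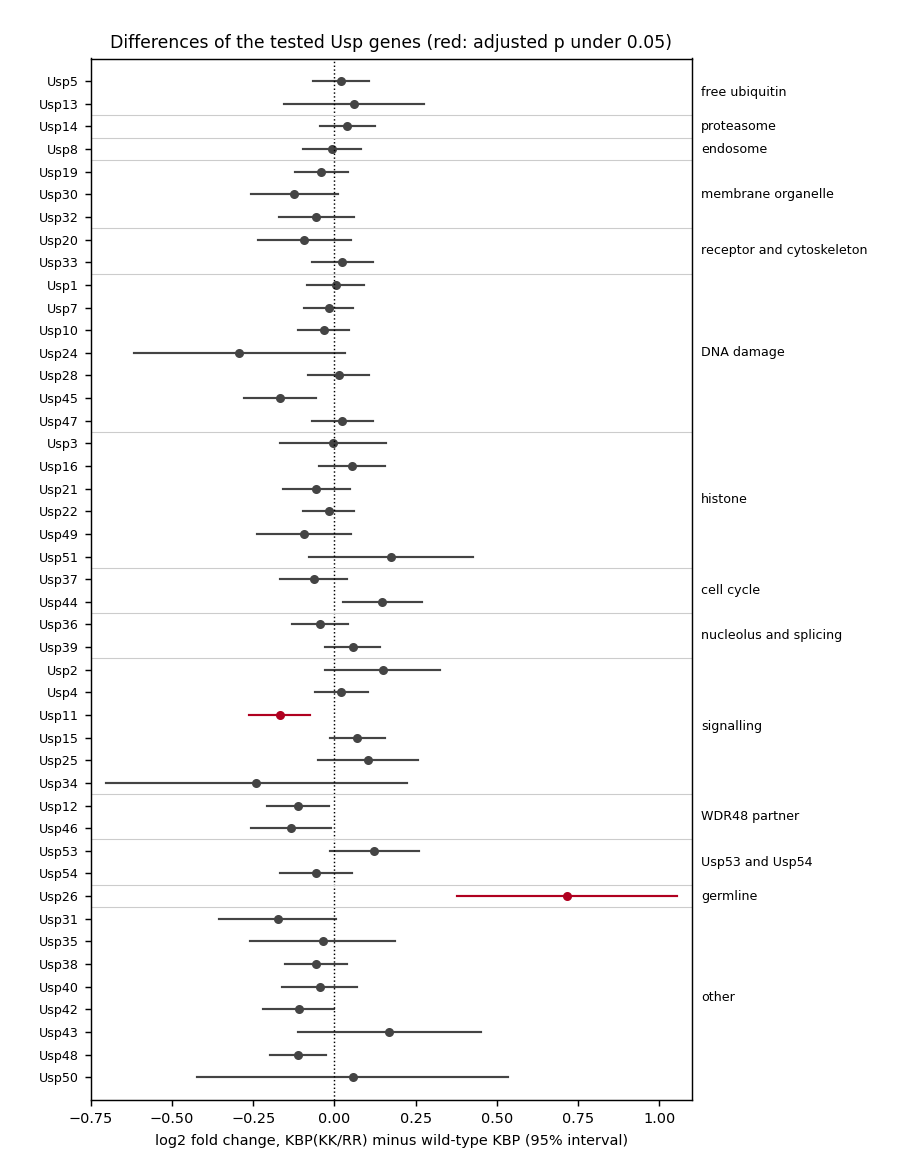
Log2 fold change of each tested gene (point) with its 95% interval (line), grouped by role, where values right of 0 are higher in KBP(KK/RR) cells. Only Usp26 and Usp11, in red, have an adjusted p under 0.05, and most other points lie within 0.15 of 0.

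Enzymes that keep free ubiquitin in supply gave no call. Usp14, which sits on the proteasome and trims ubiquitin from its substrates (chromosome 18, 9993615 to 10030149), measured 193, 191 and 193 CPM with wild-type KBP and 207, 188 and 198 CPM with KBP(KK/RR). Its values overlapped, with a fold of 1.03 (95% interval 0.969 to 1.09, edgeR adjusted p = 0.651). Usp5 measured 298, 309.8 and 321 against 302, 312 and 327 CPM, a fold of 1.01 (0.956 to 1.08), and its relative Usp13 a log2 fold change of 0.06. Usp8, which acts on receptors at endosomes, had a fold of 0.995 (0.935 to 1.06).

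Among members at membranes, the mitochondrial outer membrane enzyme Usp30, known as a brake on mitophagy, had 21.6, 21.2 and 22.6 CPM with wild-type KBP and 19.1, 21.6 and 19.5 CPM with KBP(KK/RR). KBP(KK/RR) replicate 5 lay among the wild-type values, and the log2 fold change of -0.12 (SE 0.06) was not past the threshold (edgeR adjusted p = 0.314). The membrane-anchored Usp19 (-0.04) and Usp32 (-0.06) were closer to 0. Of the related pair Usp20 and Usp33, which act on beta-adrenergic and other receptors, Usp20 had a log2 fold change of -0.09 and Usp33 of 0.02.

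The 7 genes grouped here for their main known part in DNA repair or p53 control (Usp1, Usp7, Usp10, Usp24, Usp28, Usp45 and Usp47) gave 0 calls by edgeR, with 1 unadjusted p under 0.05. Usp11, which also has a part in DNA repair and did pass, is described with the signalling genes. Usp7 (chromosome 16, 8688722 to 8757067) stood at 542, 550.5 and 529 CPM with wild-type KBP and at 544, 524 and 533 CPM with KBP(KK/RR). These values interleaved, and the fold of 0.987 had a 95% interval of 0.936 to 1.04. Usp10 (259, 258 and 258 against 246, 255 and 255 CPM) did not overlap between the groups, yet its fold was 0.977 (0.925 to 1.03, edgeR adjusted p = 0.682). Usp1, which acts on PCNA and FANCD2, had a log2 fold change of 0.0039, Usp28 of 0.01 and Usp47 of 0.02.

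Usp45, which acts on the repair nuclease subunit ERCC1 (chromosome 4, 21767161 to 21837872), measured 67.8, 70.0 and 68.0 CPM with wild-type KBP and 67.0, 57.2 and 58.9 CPM with KBP(KK/RR). The groups did not overlap, but replicate 4 lay next to the wild-type values. The difference of -0.17 on the log2 scale (SE 0.05) missed the threshold (edgeR adjusted p = 0.0885). Without replicate 4 it was -0.24 and past the threshold (adjusted p = 0.00412), as it was with no filter on low counts (0.0213). It also passed, at -0.16, after each library's dependence on transcript length and base composition was removed (0.0167). In these settings the calls over all genes also rose, from 448 to 767, 966 and 702. Usp45 did not pass with DESeq2 (adjusted p = 0.128), limma-voom (0.115) or upper-quartile scaling (0.113), nor in edgeR without KBP(KK/RR) replicate 5 (0.272) or 6 (0.344).

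The 6 genes grouped as histone deubiquitinases (Usp3, Usp16, Usp21, Usp22, Usp49 and Usp51) gave no call by edgeR either, and 0 of them had an unadjusted p under 0.05. Each gene was given a single role, so this count leaves out members grouped elsewhere. Usp44, which also acts on a histone, is described with the cell cycle genes below. Usp12, Usp46 and Usp48 are likewise outside this count and are described further down (edgeR unadjusted p 0.0223, 0.0340 and 0.0131, all lower). Usp22, the deubiquitinase subunit of the SAGA coactivator (chromosome 11, 61151781 to 61175059), measured 243, 243 and 247 CPM with wild-type KBP and 247, 241 and 236 CPM with KBP(KK/RR). The groups overlapped at a fold of 0.987 (95% interval 0.935 to 1.04). Its relative Usp51 had a log2 fold change of 0.17 at a low level (3.64 ± 0.385 against 4.08 ± 0.0536 CPM, SD, n = 3). The log2 fold changes were 0.05 for Usp16, -0.06 for Usp21, -0.0044 for Usp3 and -0.09 for Usp49.

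Usp44, which counters ubiquitination at the mitotic checkpoint and on histone H2B (chromosome 10, 93819969 to 93859425), measured 27.5, 30.3 and 28.6 CPM with wild-type KBP and 33.7, 31.8 and 30.3 CPM with KBP(KK/RR). The highest wild-type and the lowest KBP(KK/RR) library met, and the log2 fold change of 0.15 (SE 0.06) did not pass after adjustment (unadjusted p = 0.0204, edgeR adjusted p = 0.180). The cell cycle enzyme Usp37 had a log2 fold change of -0.06. Usp36, a nucleolar enzyme, had -0.04, and the spliceosome component Usp39, which lacks the catalytic cysteine, had 0.06 (137, 146 and 145 against 145, 148 and 151 CPM, groups that overlapped).

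Usp11 fell in KBP(KK/RR) cells. It is an X-linked enzyme that acts on TGF-beta receptors and in DNA repair (chromosome X, 20703909 to 20720539), and its start region is the second of those printed above. It stood at 78.1, 77.6 and 77.6 CPM with wild-type KBP and at 67.3, 72.3 and 68.0 CPM with KBP(KK/RR). The wild-type libraries were almost equal and all 3 KBP(KK/RR) libraries lay below them. It fell by 0.17 on the log2 scale (SE 0.05; edgeR adjusted p = 0.0436), a fold of 0.889 (95% interval 0.833 to 0.9497). The call did not survive DESeq2 (adjusted p = 0.0539), limma-voom (0.0562), limma on the normalized signal (0.0603), upper-quartile scaling (0.0722) or library totals (0.0538), nor the loss of any library except KBP(KK/RR) replicate 5 (0.0629 to 0.192). It passed with the length and GC trend removed (log2 fold change -0.18, adjusted p = 0.00418).

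The 2 closest relatives of Usp11 showed no such difference. Usp4 had 162.3 ± 1.09 CPM with KBP(KK/RR) and a log2 fold change of 0.02 (95% interval of the fold 0.959 to 1.07). Usp15 measured 138, 135 and 135 CPM with wild-type KBP and 147, 144 and 138.5 CPM with KBP(KK/RR). Its groups just failed to overlap, in the direction opposite to Usp11, at a log2 fold change of 0.07 (SE 0.04, edgeR adjusted p = 0.370). The other members with signalling roles, Usp2 (0.15), Usp25 (0.10) and Usp34 (-0.24), gave no call.

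Usp12 and Usp46 are sister enzymes that are both switched on by the WD-repeat protein WDR48, and both lie on chromosome 5 (146734809 to 146794956 and 73998726 to 74068411). Usp12 measured 64.9, 63.7 and 61.7 CPM with wild-type KBP and 59.4, 57.8 and 58.8 CPM with KBP(KK/RR). Usp46 measured 23.7, 24.0 and 23.5 CPM against 21.9, 20.9 and 22.1 CPM. For both genes every KBP(KK/RR) library lay below every wild-type library, where the groups did not overlap for 22.4% of all tested genes. The log2 fold changes of -0.11 (SE 0.05) and -0.13 (SE 0.06) reached unadjusted p of 0.0223 and 0.0340 but not the threshold after adjustment (edgeR adjusted p 0.188 and 0.227). Usp1, another enzyme that WDR48 activates, had a log2 fold change of 0.0039 (95% interval of the fold 0.944 to 1.07). The activator Wdr48 had a log2 fold change of 0.03 and a further partner, Wdr20a, of -0.02. Usp46os1 and Usp46os2 are annotated across the Usp46 locus, and reads of overlapping genes cannot be told apart without the strand setting of the counting.

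Usp26 rose in KBP(KK/RR) cells and had the largest fold of the tested members. It is an X-linked gene best known from the testis (chromosome X, 51752667 to 51801233), and its start region is the first of those printed above. It had 47, 71 and 43 counts with wild-type KBP and 89, 97 and 83 counts with KBP(KK/RR), or 1.80, 2.21 and 1.79 CPM against 2.99, 3.96 and 2.79 CPM. Every KBP(KK/RR) library lay above every wild-type library, with replicate 5 highest. The rise was 0.72 on the log2 scale (SE 0.16; edgeR adjusted p = 0.0170), a fold of 1.64 (95% interval 1.30 to 2.08).

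The Usp26 call rested on few reads. It was not past the threshold in limma-voom (adjusted p = 0.0516), without wild-type KBP replicate 3 (0.0569) or without KBP(KK/RR) replicate 5 (log2 fold change 0.56, adjusted p = 0.0880), and DESeq2 gave it no adjusted p (unadjusted p = 0.00116). The lower primitive endoderm markers of KBP(KK/RR) cells, given above, moved with the groups as Usp26 and Usp11 did, and their part in either difference was not tested. RefSeq places the non-coding genes Gm35727 across the Usp26 locus and Gm39499 across that of Usp11. It also places Thoc1 across Usp14, Gm4129 across Usp15, Tnfrsf13b across Usp22, Ahsa2 across Usp34, Metap2 across Usp44 and Tstd3 across Usp45, so values of these genes carry the same uncertainty.

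**Figure D3:**
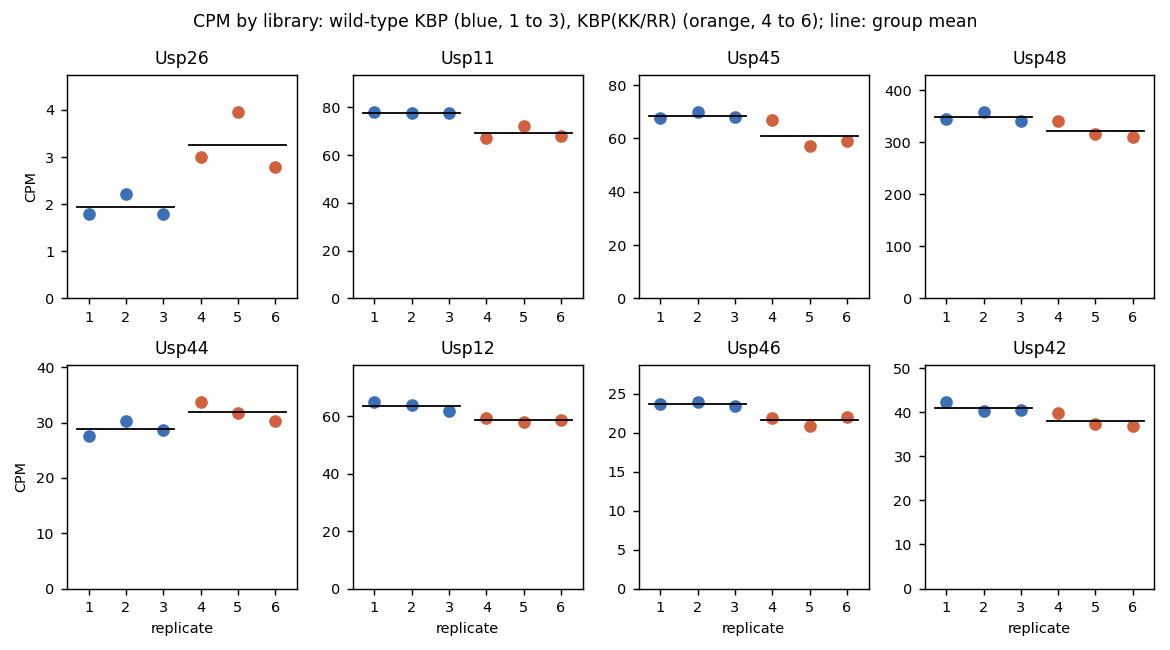
CPM in each library of the 8 genes with an unadjusted p under 0.05, wild-type KBP in blue (replicates 1 to 3) and KBP(KK/RR) in orange (4 to 6), with the group mean as a line and axes from 0. Usp26 separates the groups most in fold (1.79 to 2.21 against 2.79 to 3.96 CPM), Usp44 shows groups that touch, and in Usp45 and Usp48 replicate 4 lies near the wild-type libraries.

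Of the remaining genes, Usp48 (chromosome 4, 137594120 to 137658537) measured 345, 359 and 341 CPM with wild-type KBP and 341, 316 and 311 CPM with KBP(KK/RR). Replicate 4 nearly touched the lowest wild-type library, with a log2 fold change of -0.11 (SE 0.04, edgeR adjusted p = 0.148). Without that replicate it was -0.15 (edgeR adjusted p = 0.0272), and Usp48 passed in no other setting run. Usp42 had 42.3, 40.3 and 40.5 against 39.8, 37.2 and 36.9 CPM, groups that did not overlap at a log2 fold change of -0.11 (adjusted p = 0.258). Usp43 had 2.72, 2.52 and 2.79 against 3.09, 2.86 and 3.03 CPM, also without overlap, at 0.17 (adjusted p = 0.534). Usp53 and Usp54, a related pair, had log2 fold changes of 0.12 and -0.06. Usp35, Usp38, Usp40 and Usp50 had -0.04, -0.06, -0.05 and 0.06, and Usp50, at 0.995, 1.03 and 1.001 against 1.08, 1.31 and 0.808 CPM, had the widest interval among these (fold 0.746 to 1.45).

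Among genes of at least 10 CPM, the widest spread between libraries of 1 group was seen in 3 genes with long transcripts. Usp24, Usp34 and Usp31 are named here because of these values. Usp24 (chromosome 4, 106315980 to 106446613; longest transcript 10594 bases) measured 126, 156 and 144 CPM with wild-type KBP and 132, 112 and 104 CPM with KBP(KK/RR). Usp34, which stabilises axin in WNT signalling (chromosome 11, 23303185 to 23490560; 12200 bases), measured 189, 235 and 236 CPM against 224, 171 and 164 CPM. In both, wild-type replicate 1 was low and KBP(KK/RR) replicate 4 was high, so the groups overlapped. The log2 fold changes of -0.29 (SE 0.12) and -0.24 (SE 0.17) were not past the threshold (edgeR adjusted p 0.309 and 0.535).

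Usp31 (10198 bases) measured 50.8, 51.7 and 46.6 CPM against 50.5, 40.1 and 41.4 CPM, with replicate 4 again among the wild-type values, at a log2 fold change of -0.17 (edgeR adjusted p = 0.285). Without replicate 4 it was -0.29 and past the threshold (0.00301), and it also passed with no filter on low counts (0.0261). Usp31 passed in no other setting run, and in both of these the calls over all genes also rose (767 and 966 against 448). The related X-linked gene Usp9x, which the name rule leaves out, likewise had a low wild-type replicate 1 and a high KBP(KK/RR) replicate 4 (569.9, 689.9 and 673 against 658, 514 and 515 CPM; log2 fold change -0.20, edgeR adjusted p = 0.542). Usp15, with a transcript of 11525 bases, did not: its KBP(KK/RR) replicate 4 was the highest by a small margin.

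Across the 45 tested genes, the deviation of a library from its group mean had a Spearman rho with transcript length of 0.523 in KBP(KK/RR) replicate 4, -0.361 in replicate 5 and -0.337 in replicate 6. It was 0.155, 0.217 and -0.159 in wild-type KBP replicates 1, 2 and 3. Over all 14217 tested genes with a length the same values were 0.330, -0.107 and -0.296, and -0.168, 0.118 and 0.063. The deviations of 1 group sum to about 0 and the genes share the libraries, so these are descriptions. The fold change between the groups had a rho of -0.447 with length over the 45 genes and of -0.205 over all genes. After the dependence on length and base composition was removed, the log2 fold change was -0.16 for Usp24 (past the threshold, adjusted p = 0.0159), -0.12 for Usp34 (0.416) and -0.06 for Usp31 (0.593).

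**Figure D4:**
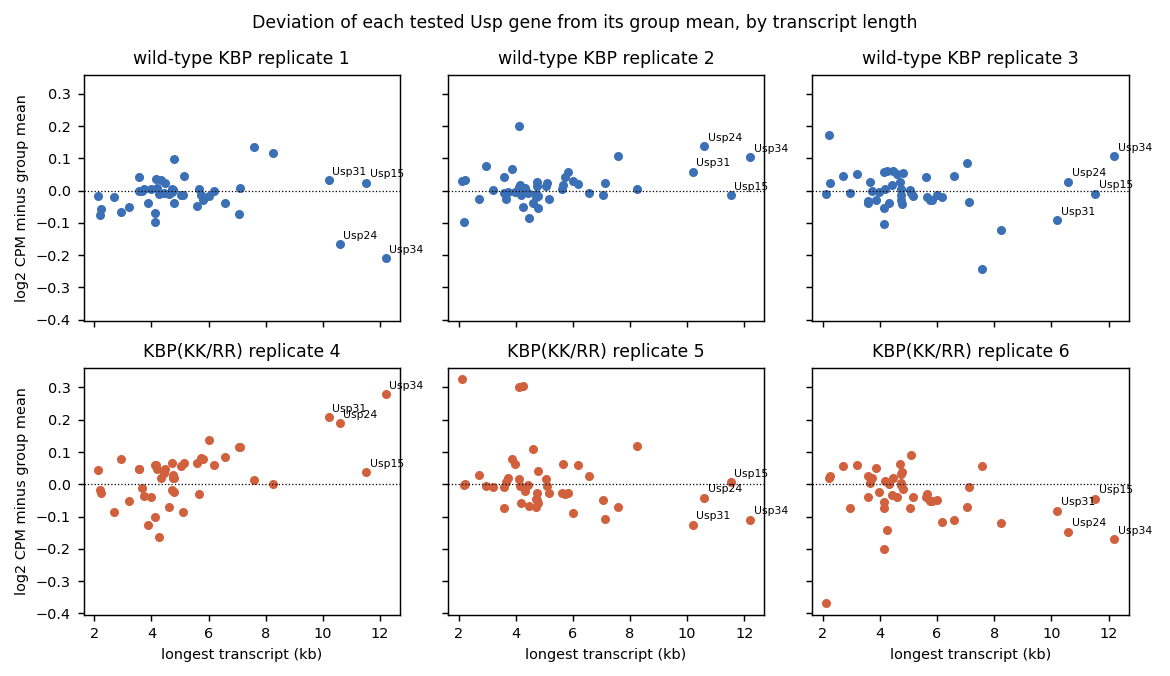
Deviation of log2 CPM from the group mean against the length of the longest transcript, 1 panel for each library and 1 point for each tested gene. The long genes Usp24, Usp31 and Usp34 lie above 0 in KBP(KK/RR) replicate 4 and below 0 in replicates 5 and 6, whereas Usp15 stays near 0 in all 6.

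Relatives of the family and its partners were read from the same fit. Of 9 tested members that the name rule leaves out (such as Usp9x, Usp27x, Cyld and Uspl1), 0 were called by edgeR and 2 had an unadjusted p under 0.05 (DESeq2 gave an adjusted p to 4 and called 0), with a median log2 fold change of 0.07. Of 15 cofactor genes 0 were called by edgeR and 3 had an unadjusted p under 0.05 (median 0.03; DESeq2 called 0 of the 14 it adjusted). Among these the SAGA adaptors Atxn7l3 and Eny2, which hold Usp22 active, had -0.04 and 0.13, and Gmps, a partner of Usp7, had 0.08. Of 7 ubiquitin and ubiquitin-activating enzyme genes 0 were called by edgeR and 2 had an unadjusted p under 0.05 (median -0.02; DESeq2 called 0 of 6).

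In the lists of other deubiquitinase families and related proteins 1 gene was called. The 12 genes listed under JAMM metalloproteases include related subunits such as Psmd7, Cops6, Eif3f, Eif3h and Prpf8. Of the 12, Cops5, the subunit of the COP9 signalosome that takes NEDD8 off cullin ligases, rose from 127, 127 and 121 CPM to 135, 139.9 and 146 CPM. All 3 KBP(KK/RR) libraries lay above the wild-type ones, at a log2 fold change of 0.16 (SE 0.04, edgeR adjusted p = 0.0372). Over all tested genes 1.05% were called higher. An unadjusted p under 0.05 was reached by 3 of the 12, and DESeq2 called 1 of the 10 it adjusted. Of 4 UCH, 16 OTU, 3 Josephin and 5 MINDY or ZUP1 genes 0 were called by edgeR, with 0, 2, 0 and 0 at an unadjusted p under 0.05. DESeq2 gave an adjusted p to 4, 10, 2 and 2 of them and called 0. Median log2 fold changes were 0.04 for both the JAMM and the UCH genes, 0.02 for OTU, -0.07 for Josephin and -0.02 for MINDY and ZUP1.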

How the data were processed

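Libraries were made from total RNA depleted of ribosomal RNA, per the labels' protocols. The submitters' processing notes name bcl2fastq, TopHat, HTSeq and DESeq2 and the builds mm10 and GRCm38. Not given in the sources used here were versions, annotation and strand setting. The authors deposited raw counts per gene symbol. They also deposited a normalized signal, which by its values is each count divided by 1 factor per library: 100% of its values came out as whole reads within 0.01, and edgeR on those reads called 448 genes.

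All genes passing filterByExpr (14340) were fitted with edgeR 4.0.16 under R 4.3.3 (TMM, robust quasi-likelihood, glmQLFTest), and Benjamini-Hochberg adjusted p under 0.05 was called. Positive log2 fold changes mean higher in KBP(KK/RR). SE is the absolute log2 fold change over the square root of F, and 95% intervals use the test's degrees of freedom. Procedures were tested on simulated counts. Members, roles and lists were chosen with earlier results of these data known. Genes given in every library were those with an unadjusted p under 0.05, the 5 highest and 3 lowest per length, and Usp7, Usp9x, Usp14, Usp22, Usp30 and Usp44, with others where a comparison turned on them. Alternatives used DESeq2 1.42.0, limma 3.58.1, other scalings, filters and thresholds, a length and GC trend removed (splines, 5 degrees of freedom), and each library left out. The test on recovered reads was added after seeing the data. Start regions are from RefSeq on GRCm38.p6.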

Additional observations from a re-analysis of the deposited data

How the results depend on the processing

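Of the 45 tested genes, 2 were called in the main comparison. The number was 0 with DESeq2, 0 with limma-voom (11 at an unadjusted p under 0.05), 0 at an adjusted p under 0.01, 1 with limma on log2 of the normalized signal plus 1, 1 with upper-quartile scaling, 1 with library totals, 4 with no filter but 1 count, 4 with the length and GC trend removed, and 0 to 4 with single libraries left out. The cause was not tested. Over all genes the 448 calls became 270 with limma-voom, 279 on the normalized signal, 966 with no filter, 702 with the trend removed, 130 and 823 at thresholds of 0.01 and 0.1, and 122 to 767 with single libraries left out (lowest without KBP(KK/RR) replicate 6, highest without replicate 4). The family's median log2 fold change stayed between -0.027 and -0.00027, lower than 0 in each setting run. With single libraries left out, Usp5 ranged from -0.011 (without KBP(KK/RR) replicate 6; -0.0056 without wild-type KBP replicate 1) to 0.047, and Usp50 from -0.10 (without KBP(KK/RR) replicate 5) to 0.23. No paired analysis was possible because the groups share no replicate number. Replicate libraries differed by more than counting noise (chi-square per degree of freedom 2.60 to 6.79), which does not show whether they came from separate cultures. Depth limits Usp18, Usp26 and Usp50 most.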

Other observations

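The Usp17-like genes, relatives of the family that sit outside the name rule, were counted at low levels. Usp17le measured 0.842, 0.872 and 1.08 CPM with wild-type KBP and 1.55, 1.51 and 1.25 CPM with KBP(KK/RR). Its groups did not overlap, and the log2 fold change of 0.63 (SE 0.21) was not past the threshold (edgeR adjusted p = 0.115). Usp17lb had a log2 fold change of 0.52 (SE 0.27) and Usp17lc of 0.41 (SE 0.31), while Usp17la, the most counted of them, had 0.07 (SE 0.16). These genes are close copies. How the counting treated reads shared between them was not examined, so their single values are uncertain. The Y-linked Usp9y had 28 counts and Usp29 56 counts over all 6 libraries, and neither was tested.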
